A study of Arabidopsis thaliana with 7 samples.

Results

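TOPLESS (TPL) and its 4 relatives TPR1, TPR2, TPR3 and TPR4 form the whole family of TOPLESS-type transcriptional corepressors in Arabidopsis thaliana. They were taken as the 5 probe sets, of 27826 in the deposited table, that carry the identifiers AT1G15750_at (TPL), AT1G80490_at (TPR1), AT3G16830_at (TPR2), AT5G27030_at (TPR3) and AT3G15880_at (TPR4, listed in RefSeq as WSIP2). All 5 were measured, and none was identical to another probe set. The series compares 3 arrays of bdl embryos, described in the labels as a Bodenlos (IAA12) mutant, with 4 arrays of wild-type embryos, all at the 8-cell stage and all in the Columbia (Col-0) ecotype. Each array carried RNA of a pool of isolated embryos. The labels do not name the bdl allele, do not say whether the mother plants were homozygous, and do not say whether any embryo carried a transgene. They also do not say whether replicates came from separate harvests, so a p-value here reflects the spread between arrays, which may be technical.

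TOPLESS-type proteins do not bind DNA themselves. Transcription factors and adaptor proteins bring them to genes through a short EAR motif, and they silence those genes together with histone deacetylases such as HDA19 and the kinase module of the Mediator complex. In auxin signalling the adaptors are the Aux/IAA proteins: BODENLOS (IAA12) holds TPL on the auxin response factor MONOPTEROS until auxin, bound by TIR1/AFB receptors, sends the Aux/IAA protein to degradation. In earlier genetic work a tpl mutation turned the embryo's shoot pole into a root and, in a separate experiment, weakened the defects of bdl embryos. The comparison described here asks whether the transcripts of the corepressors differ when the repressor that recruits them is altered.

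The markers of the labelled tissue were well expressed: the 8 early embryo genes, WOX2, WOX8 and LEC1 among them, had a mean log2 intensity of 8.31 to 8.40 in the bdl arrays and 8.75 to 8.99 in the wild-type arrays. Of these 8, 3 were called (37.5%, against 1.76% of all probe sets): the epidermal gene PDF1 and the AP2-type factor gene DRN fell, with log2 differences of -2.83 and -1.99, and the seed maturation regulator FUS3 rose at 1.02 (limma, adjusted p = 0.0451). These marker lists were chosen with earlier results of these data known. Of 9 endosperm markers, 8 lay under the 25th percentile of all probe sets (log2 1.85), and SUC5 was the exception. The 15 pollen markers averaged 2.0 to 3.50 in bdl and 2.14 to 4.60 in wild type, with wild type replicate 4 highest. Of these 15, 2 lay under that percentile, and VGD1 had an intensity of 422 on wild type replicate 4. The 13 seed coat markers averaged 2.39 to 3.41 in bdl and 3.12 to 3.84 in wild type, and 3 lay under that percentile. LDOX was the brightest of them, with a mean log2 intensity of 6.85 in bdl and 7.40 in wild type. Most pollen and seed coat markers thus lay above that percentile. None of these 37 markers of other tissues passed the test (limma, smallest adjusted p = 0.118). An unadjusted p under 0.05 was held by 5, 4 of seed coat and 1 of endosperm, against 10.7% of all probe sets. Of the 13 seed coat markers, 10 averaged lower in bdl and 3 higher. The arrays did not overlap for 5 of these 13, 4 lower and 1 higher in bdl, where 11.2% of all probe sets were separated. Of these 37 markers, only the pollen markers entered a fit of the TOPLESS genes, with their mean as a covariate. The part of the seed coat and endosperm markers in the values of the TOPLESS genes was not tested. Probe levels have no common scale, so the members are compared here by their differences between genotypes and not by their levels. In bulk RNA, fewer cells expressing a gene and less RNA per cell cannot be told apart.

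No TOPLESS gene was called different in bdl. TPR3 averaged higher in bdl, TPL, TPR1 and TPR2 averaged lower, and TPR4 was nearly level. At an adjusted p under 0.05 none of the 5 passed (limma on log2 values, Benjamini-Hochberg over all probe sets), where 1.76% of all probe sets did. At an unadjusted p under 0.05, there were 2 of the 5, TPR1 and TPR3, where there were 10.7% of all probe sets. For 1 of the 5, TPR3, no bdl array overlapped the wild-type arrays; 11.2% of all probe sets were separated in this way, and 5.71% with bdl higher as in TPR3. The median log2 difference of the family was -0.34, with a range of -0.92 to 0.60, against -0.01 over all probe sets. On every array all 5 members lay at or above the 64.4th percentile of intensity.

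**Figure D1:**
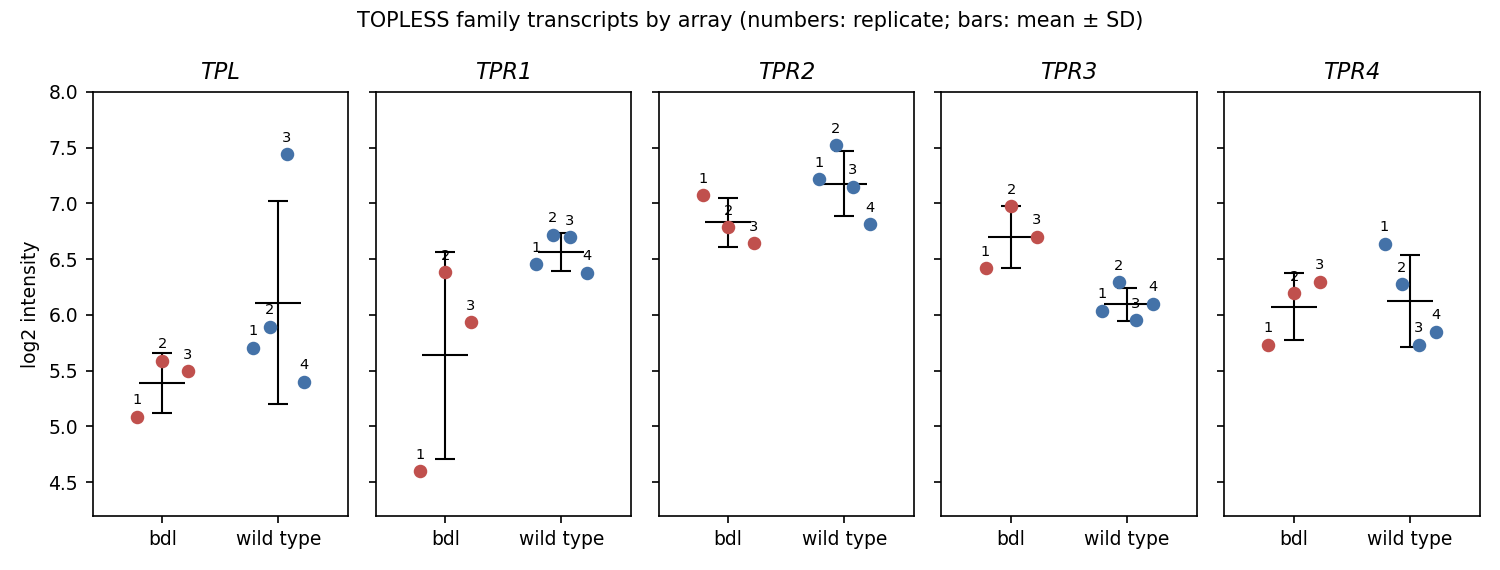
Log2 intensity of each TOPLESS gene on the 3 bdl arrays (left, red) and the 4 wild-type arrays (right, blue); numbers beside points are replicates, and bars are the mean ± SD. Only TPR3 has no overlap between genotypes, while single arrays stand apart for TPL (wild type 3, log2 7.44) and TPR1 (bdl 1, log2 4.60).

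TPL, the founding member, had intensities of 34.0, 48.2 and 45.1 in bdl replicates 1 to 3, and of 52.2, 59.5, 174 and 42.2 in wild type replicates 1 to 4. The genotypes overlapped, since wild type 4 lay below 2 bdl arrays, and wild type 3 stood far above every other array. The log2 difference was -0.72 ± 0.46 (SE; 3 against 4 arrays), with a 95% interval of -1.79 to 0.35 (limma, adjusted p = 0.672). Without wild type 3 the difference was -0.28 (adjusted p = 0.782), a size 0.38 of that with all arrays. The SD of log2 intensity was 0.27 in bdl and 0.91 in wild type, and the 3 other wild-type arrays had an SD of 0.25.

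On wild type 3 the means of the pollen, seed coat and endosperm lists were 2.20, 3.50 and 2.32 on the log2 scale, each inside the range of the other wild-type arrays. Their part in the TPL value was not tested. TPL exceeded the next wild-type array by 1.55 on the log2 scale, or 2.92-fold. Among the 13913 probe sets brighter than the median, 70 (0.503%) had wild type 3 highest by at least as much, and 327 (2.35%) had any 1 wild-type array highest by that much. Gaps of this size with a wild-type array highest were therefore uncommon among well-expressed genes, but TPL was not alone in having one. Gaps with a wild-type array lowest were not counted, and the array and direction were taken from the TPL values.

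TPR1, the closest relative of TPL, which is also known from plant immunity as a partner of the resistance protein SNC1, had intensities of 24.2, 83.5 and 61.2 in bdl replicates 1 to 3. In wild type replicates 1 to 4 they were 87.7, 105, 104 and 83.3. All wild-type arrays lay close together, while the bdl arrays were scattered, with bdl 2 just inside the wild-type range and bdl 1 far below every other array. The log2 difference was -0.92 ± 0.40 (SE), with a 95% interval of -1.83 to -0.01 (limma, unadjusted p = 0.0477, adjusted p = 0.461). Without bdl 1 it was -0.40 (adjusted p = 0.724), a size 0.44 of that with all arrays. The SD was 0.93 in bdl and 0.17 in wild type. An exact permutation test of the TPR1 values between genotypes (2-sided) gave p = 0.114.

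On bdl 1, TPR1 lay 1.34 below the next bdl array on the log2 scale, or 2.53-fold. Of the probe sets brighter than the median, 146 (1.05%) had bdl 1 lowest by at least as much, and 418 had any 1 bdl array lowest by that much. The marker means on bdl 1 were 2.12 for pollen, 3.41 for seed coat and 2.38 for endosperm, against 3.50, 3.24 and 2.12 on bdl 2 and 2.0, 2.39 and 2.19 on bdl 3. Of the bdl arrays, bdl 1 thus had the highest seed coat and endosperm means. Their part in the TPR1 value was not tested.

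TPR4, the third member of the branch that holds TPL and TPR1, differed least. Its intensities were 53.1, 73.2 and 78.6 in bdl replicates 1 to 3, and 99.6, 77.5, 53.2 and 57.6 in wild type replicates 1 to 4. The genotypes overlapped, with bdl 1 and wild type 3 nearly equal and wild type 1 above every bdl array. The log2 difference was -0.05 ± 0.27 (SE), with a 95% interval of -0.68 to 0.58 (limma, adjusted p = 0.972), or 0.624-fold to 1.497-fold. The sign turned when wild type 1, wild type 2 or bdl 1 was left out, with differences of 0.12, 0.001 and 0.12.

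TPR2 and TPR3 form the other branch of the family. TPR2 had intensities of 135, 110 and 99.8 in bdl replicates 1 to 3, and of 149, 184, 142 and 112 in wild type replicates 1 to 4. The bdl arrays lay towards the lower end, but wild type 4 fell among them. The log2 difference was -0.34 ± 0.22 (SE), with a 95% interval of -0.86 to 0.17 (limma, adjusted p = 0.676). Leaving out single arrays gave -0.46 to -0.23, the smaller size without wild type 2.

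TPR3 was the member whose genotypes separated. Its intensities were 85.5, 126 and 104 in bdl replicates 1 to 3, against 65.6, 78.5, 61.9 and 68.7 in wild type replicates 1 to 4. Every bdl array lay above every wild-type array, the closest being bdl 1 and wild type 2, which were 6.92 intensity units apart. The geometric mean was 104 in bdl and 68.4 in wild type, a log2 difference of 0.60 ± 0.20 (SE), or 1.52-fold. The 95% interval on the log2 scale was 0.14 to 1.06, or 1.10- to 2.09-fold (limma, unadjusted p = 0.0170, adjusted p = 0.289). An exact permutation test over the 35 splits of the arrays (2-sided) gave p = 0.0571, the smallest it can give here. With the arrays separated, no other value was possible. Leaving out single arrays gave differences of 0.46 to 0.74, all in the same direction and none called. For TPL, TPR2 and TPR4 the exact permutation test gave p = 0.171, 0.114 and 0.914.

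The members also differed in how closely their arrays agreed. The pooled SD within genotypes was 0.21 for TPR3, 0.27 for TPR2, 0.37 for TPR4, 0.60 for TPR1 and 0.73 for TPL on the log2 scale, against a median of 0.40 over the brighter probe sets. TPR3 and TPR2 thus varied less than a typical well-expressed gene, and TPR1 and TPL more. With its own spread, TPR3 would have needed a log2 difference of 1.03 (2.04-fold) to be called, TPR2 1.15, TPR4 1.41, TPR1 2.03 and TPL 2.39 (5.24-fold). These values are observed differences that would reach the cutoff at this spread and setting, and they are not limits of detection. Smaller true changes could be missed, and so could true changes of this size or somewhat larger.

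**Figure D2:**
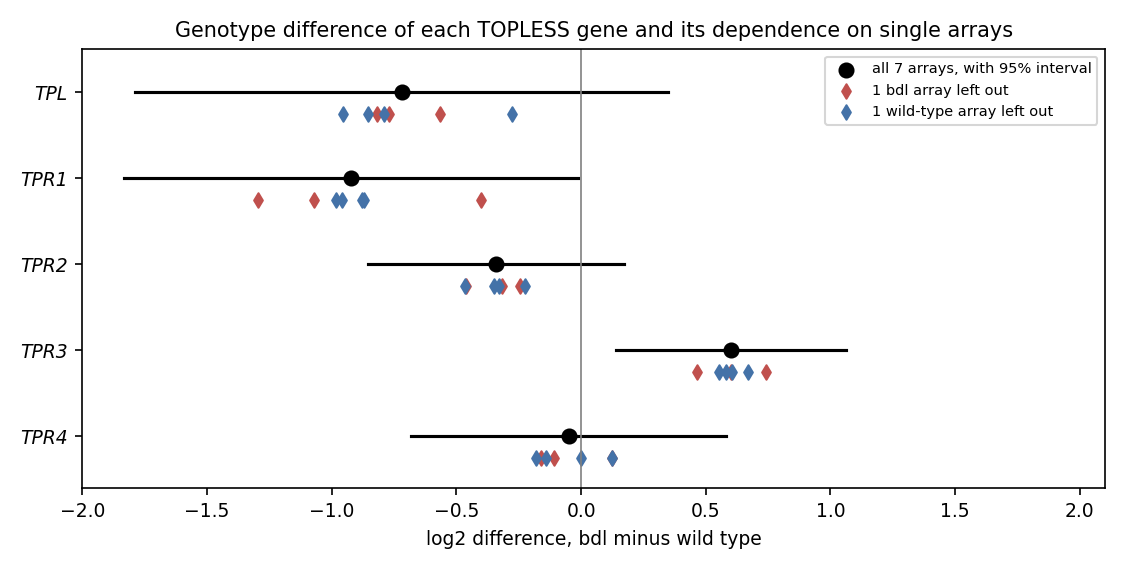
Log2 difference of each TOPLESS gene, bdl minus wild type, from all 7 arrays (black, with its 95% interval) and with 1 bdl array (red) or 1 wild-type array (blue) left out. TPR3 stays between 0.46 and 0.74, TPL moves to -0.28 without wild type 3, TPR1 moves to -0.40 without bdl 1, and TPR4 crosses 0.

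Whether the members differed from each other in their response was examined with the log2 difference between 2 members on the same array, which removes any scaling of a whole array. The values are given relative to the wild-type mean of the pair. TPR3 relative to TPL was 1.35, 1.40 and 1.22 in bdl replicates 1 to 3, and 0.34, 0.41, -1.48 and 0.72 in wild type replicates 1 to 4, a mean difference of 1.32 (2.50-fold). TPR3 relative to TPR1 was 2.28, 1.06 and 1.23 in bdl, and 0.05, 0.04, -0.28 and 0.19 in wild type, a mean difference of 1.52 (2.88-fold). In both pairs every bdl array lay above every wild-type array, and the array that stood apart for TPL or TPR1 was the extreme one.

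Relative to TPR2, the other member of its branch, TPR3 was 0.42, 1.27 and 1.14 in bdl and -0.10, -0.15, -0.12 and 0.37 in wild type, a mean difference of 0.94 (1.92-fold). Relative to TPR4 the mean difference was 0.65 (1.57-fold). All 4 pairs with TPR3 were separated between genotypes, and none of the other 6 pairs was. These 4 pairs share the same TPR3 values, which were separated on their own, so they are not independent results. Set against each of the 27825 other probe sets in the same way, TPR3 was separated and higher in bdl in 33%, which is the share to read the 4 pairs against. Over all 10 pairs the smallest p was 0.0571 (exact permutation test, 2-sided, the smallest possible with 3 against 4 arrays) and the smallest adjusted p over the pairs was 0.143. A different response of TPR3 and the other members was thus not established by the test, which could not have reached 0.05.

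**Figure D3:**
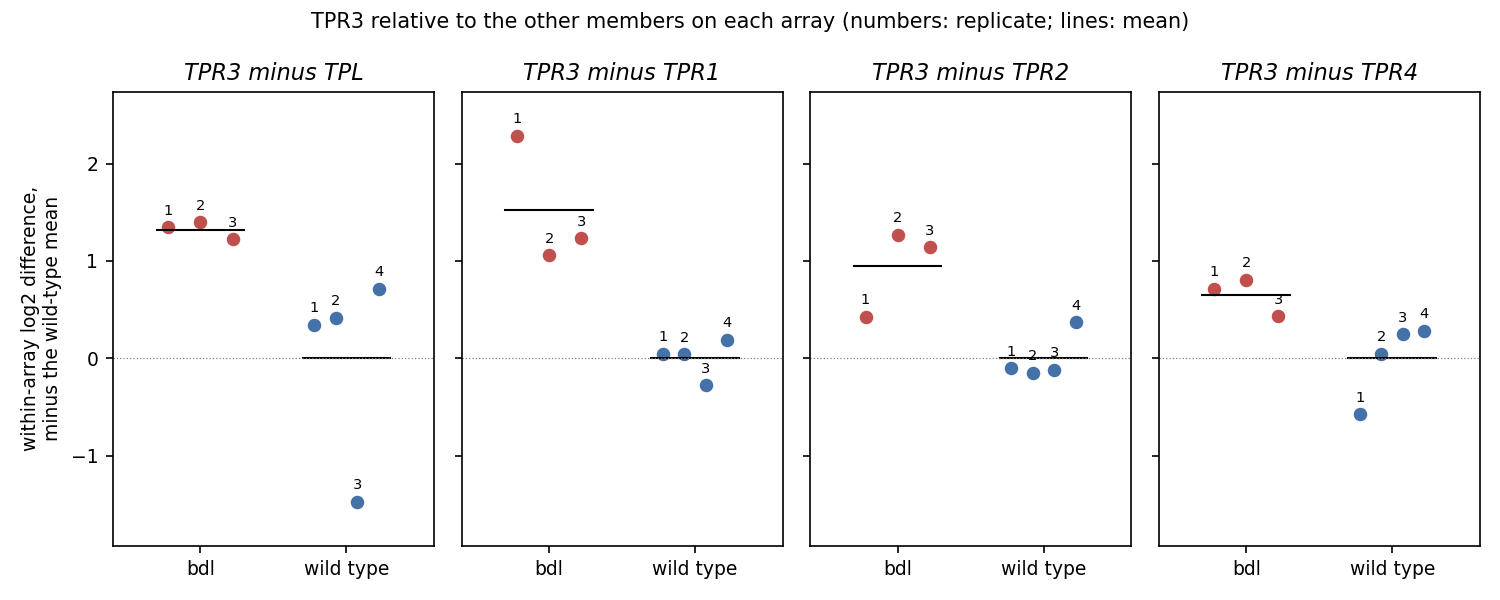
Log2 intensity of TPR3 minus that of TPL, TPR1, TPR2 or TPR4 on the same array, with the wild-type mean of each pair set to 0, for the 3 bdl arrays (left, red) and 4 wild-type arrays (right, blue); lines are means. In each panel the bdl arrays lie above the wild-type arrays, by a mean of 1.32, 1.52, 0.94 and 0.65.

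The probe sets whose log2 values ran most closely with each member over the 7 arrays were sought among the 13912 others brighter than the median. With so few arrays, 12 to 23 probe sets per member had a Pearson r above 0.95, and the values below are descriptions of these arrays. TPL ran with AT4G03945 (r = 0.98), but r was 0.21 without the 2 arrays farthest from the TPL median, so the likeness rested on wild type 3 and bdl 1. For TPR1 they were AT1G53430 (r = 0.98, and 0.85 without the 2 farthest arrays) and AT5G52820 (r = 0.98 and 0.41). TPR2 ran with AT5G24840 (r = 0.99 both ways) and TRM6 (r = 0.99 and 0.97). TPR3 ran with PDH-E1 ALPHA (r = 0.99 and 0.94) and AT3G03580 (r = 0.98 both ways). TPR4 ran with EIF2 GAMMA and AT4G14190 (r = 0.99 for each, both ways). None of the genes named here was itself called between genotypes.

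The transcripts of other corepressors and of chromatin and Mediator genes showed no called change either. Of 6 LEUNIG-type corepressors and SEUSS-type adaptors, which form a separate Groucho-like repression system, none passed (limma), where 1.76% of all probe sets did. None had an unadjusted p under 0.05, against 10.7% of all probe sets. Their log2 differences had a median of 0.17 and a range of -0.41 to 0.58. The smallest p in this list belonged to SLK3, with intensities of 53.2, 44.7 and 59.5 in bdl and 32.8, 28.4, 27.9 and 57.2 in wild type (log2 difference 0.58, adjusted p = 0.545). Among 20 deacetylase, SIN3-type, Mediator and acetyltransferase genes none passed, where 1.76% of all probe sets did, and the median was 0.10. An unadjusted p under 0.05 was held by 1 of the 20, against 10.7% of all probe sets. The arrays did not overlap for 2, 1 higher and 1 lower in bdl, where 11.2% of all probe sets were separated. The deacetylase gene HDA19 had intensities of 458, 501 and 411 in bdl and 408, 439, 439 and 396 in wild type, a log2 difference of 0.11 with a 95% interval of -0.27 to 0.50. The member with the smallest p was AT5G48640, a C-type cyclin of the Mediator kinase module, at 27.4, 33.7 and 19.6 in bdl and 16.3, 8.45, 10.9 and 11.4 in wild type (log2 difference 1.20, adjusted p = 0.104).

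The TIR1/AFB receptors, which start the removal of Aux/IAA proteins and so free the promoters of TOPLESS, held no call. None of the 6 passed (limma), and none had an unadjusted p under 0.05, against 10.7% of all probe sets. Their log2 differences were -0.21 to 0.37, with a median of 0.01. AFB3 had the smallest p, at 28.2, 22.3 and 29.1 in bdl and 18.5, 15.7, 15.3 and 38.9 in wild type (adjusted p = 0.794). The lists of corepressors, chromatin partners and receptors thus held no call among 32 genes, where 1.76% of all probe sets were called.

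Among the factors that bring TOPLESS to genes, calls were found. IAA12 itself, the gene altered in these embryos, had intensities of 432, 477 and 443 in bdl and 167, 152, 135 and 144 in wild type, a log2 difference of 1.59 ± 0.17 (SE; limma, adjusted p = 0.00287). Without both wild type 3 and bdl 1 its call was lost at 1.58 (adjusted p = 0.0599). Of the 29 Aux/IAA genes, IAA12 among them, 8 fell and 1 rose, with a median of -0.45. That is 31.0% against 1.76% of all probe sets, in a list chosen with earlier results of these data known. Without both wild type 3 and bdl 1, 5 were called. Those with the smallest p were IAA30 (7.23, 10.1 and 5.31 in bdl, against 155, 257, 214 and 243 in wild type), IAA1 and IAA2, with log2 differences of -4.87, -4.17 and -2.31. The bdl means of IAA1 (1.74) and IAA2 (1.38) fell below the 25th percentile of all probe sets and are not known to exceed background, so the size of these 2 differences is uncertain. Of 33 other recruiting factors, chosen across hormone and developmental pathways, 1 was called (3.03%, against 1.76% of all probe sets), higher in bdl. The median of these 33 was 0.15.

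The recruiting factor that rose was NIMIN1, a small EAR-motif protein that binds the immune regulator NPR1. Its intensities were 84.5, 192 and 56.3 in bdl and 3.23, 2.67, 2.63 and 4.18 in wild type, a log2 difference of 4.96 ± 0.40 (SE; limma, adjusted p = 0.000904). The wild-type mean, 1.64 on the log2 scale, lay under the 25th percentile of all probe sets and is not known to exceed background. For 8 of the 33 the arrays did not overlap between genotypes, 5 higher and 3 lower in bdl, where 11.2% of all probe sets were separated. Apart from NIMIN1 these did not pass, and they are named here after their values were seen. NIMIN2, AT4G32295 (KIX9), AFP4 and AP2 had log2 differences of 2.31, 1.72, 1.01 and 0.43 (limma, adjusted p = 0.132, 0.227, 0.439 and 0.424). The brassinosteroid factors BES1 and BZR1 and the AP2-type factor TOE1 had -1.58, -0.95 and -0.55 (adjusted p = 0.0659, 0.0775 and 0.410). NINJA, the adaptor of jasmonate signalling, was at 0.06 (adjusted p = 0.971).

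Genes tied to TOPLESS in the choice between shoot and root pole were mostly lower in bdl. PLT1 and PLT2 are root stem cell regulators that TPL keeps silent at the apical pole of the embryo, and the HD-ZIP III genes promote apical fate against them. Of these 7 genes 4 fell and 3 did not pass (57.1% called, against 1.76% of all probe sets), with a median of -1.33. The list was chosen with earlier results of these data known, so its share of calls is not a test of the list. PLT1 had intensities of 37.1, 31.2 and 25.8 in bdl and 102, 112, 115 and 123 in wild type, a log2 difference of -1.86 ± 0.19 (SE; limma, adjusted p = 0.00244). PLT2 was at -0.29 (adjusted p = 0.696).

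Genes of both groups were thus among those that fell. REV had a log2 difference of -2.02 and CNA, listed in RefSeq as ATHB-15, one of -1.68, and the fourth gene that fell was PHB (-1.33, named after its value was seen). PHV, a further HD-ZIP III gene, was at 1.25 and did not pass (adjusted p = 0.254). The count was 2, PLT1 and REV, without wild type 3 and again without bdl 3. It was 1, PLT1, without both wild type 3 and bdl 1, and 0 with a replicate block, where PLT1 and REV had adjusted p-values of 0.0660 and 0.0691 (limma).

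**Figure D4:**
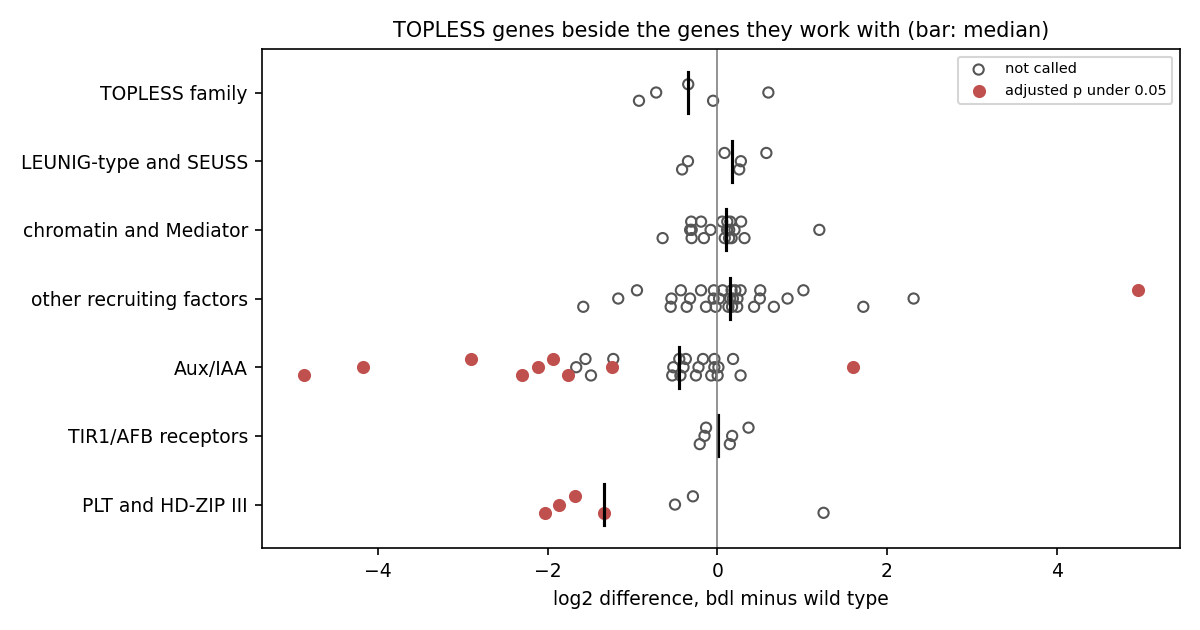
Log2 difference, bdl minus wild type, of the 5 TOPLESS genes and of 6 lists of genes set beside them. Each circle is a gene, filled where the adjusted p is under 0.05, and bars are medians. Calls appear among the Aux/IAA genes (9 of 29), the other recruiting factors (1 of 33) and the PLT and HD-ZIP III genes (4 of 7), and in none of the other 4 groups. Of all probe sets 1.76% were called.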

How the data were processed

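Total RNA of isolated embryos was labelled with biotin and hybridised to 7 one-colour arrays (3 bdl, 4 wild type), per the labels' protocols. The design text counts 3 replicates per genotype, and all 4 labelled wild-type arrays were used. The authors deposited 1 table of intensity values, which are linear and above 0 throughout. The submitters' processing notes name RMA with no version. Neither the chip definition nor the genome build is stated in any source used here, nor whether the values are RMA output taken out of log2. Which probes make up a probe set is not known here, so signal shared between similar family members cannot be judged. Array medians ran from 8.44 to 9.37, and precision is limited by the number of arrays.

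Log2 was taken with no pseudocount or further scaling. The genotypes were set against each other in limma 3.58.1 under R 4.3.3 (lmFit, eBayes, 2-sided) with genotype as the single term. P-values were adjusted by Benjamini-Hochberg over 27826 probe sets, and an adjusted p under 0.05 was a call. The fit was also run on simulated data, drawn as independent normal values with the mean and SD of each probe set. No array was made to stand apart there, as arrays did for TPL and TPR1, and no conclusion is drawn from it here. Pairs of members were compared with exact permutation tests (scipy 1.17.1). Symbols came from a RefSeq table of assembly TAIR10.1, which held 27241 loci and all 5 members.

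Named were the members, IAA12, per list up to 3 called genes in order of p (or the first by p where none was called), and per member the 2 probe sets with the highest Pearson r; a result that this rule takes for TPL is not reported here. HDA19, NINJA, PLT2, PHV and the tissue markers were named outside this rule, after their values were seen. The members and lists were chosen with earlier results of these data known. Alternatives were 3 other scalings, 2 filters on dim probe sets (means above the 25th or 50th percentile), a trended and robust variance, weights per array, a replicate block, the pollen marker mean as a covariate, a pseudocount of 1, and leaving out each array. Leaving out both arrays that stood apart for TPL and TPR1 was added after the data were seen. No sequences were used here.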

Additional observations from a re-analysis of the deposited data

Results flagged for a closer look

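Dixon's ratio was taken over the 4 wild-type arrays for 31 values (member intensities on the linear and log2 scales, named genes on the log2 scale, list means), and 2 passed its 95% critical value, which chance passes in about 1 of 20 groups. The TPL intensity of wild type replicate 3 was 174, while the remaining wild-type arrays lay at 42.2 to 59.5, so the gap made up 0.869 of the range. On the log2 scale used for the tests that ratio was 0.757, and TPL did not pass. The other value was CNA on wild type replicate 4, with a log2 intensity of 4.69 where the remaining wild-type arrays had 5.35 to 5.45. The 3 bdl arrays, and with them the low TPR1 value of bdl replicate 1, are too few for this check.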

How the results depend on the processing

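No TOPLESS gene was called in any of 90 refits (18 alternatives for each of the 5 members). The sign turned in 3 of them, all for TPR4: 0.12 without wild type replicate 1, 0.001 without wild type replicate 2 and 0.12 without bdl replicate 1. The 2 filters and the trended variance leave the difference itself unchanged, so the sign could not turn in those refits. The replicate block repeated the differences found without wild type replicate 4. Leaving out single arrays gave log2 differences of -0.96 to -0.28 for TPL, -1.29 to -0.40 for TPR1, -0.46 to -0.23 for TPR2, 0.46 to 0.74 for TPR3 and -0.18 to 0.12 for TPR4. Adjusted p ranged from 0.225 to 0.609 for TPR3, and without both wild type 3 and bdl 1 its difference was 0.69, that of TPL -0.12 and that of TPR1 -0.36. Among pairs, the sign turned for TPR2 relative to TPL without wild type replicate 3 (-0.074; 0.56 at most with an array left out). Without bdl replicate 1 it turned for TPR1 relative to TPL (0.17; otherwise down to -0.60) and for TPR2 relative to TPR1 (-0.060; otherwise up to 0.98). The separated pairs numbered 4 in each other scaling and 4 to 6 with an array left out; the test of pairs cannot reach 0.05 in those smaller sets either.

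Same-numbered replicates deviated together only weakly (r = 0.036 to 0.047 over all probe sets). Different-numbered arrays of bdl and wild type had r = -0.079 to 0.105, a range that holds those values. The numbers were therefore not taken to pair the arrays. The replicate block has fewer degrees of freedom. Wild type replicate 4 has no bdl array of its number, so the block gave the same differences as leaving that array out. With the block, 188 of all probe sets were called instead of 490, with 5 Aux/IAA genes and 0 PLT and HD-ZIP III genes. TPR3 was at 0.60 (adjusted p = 0.427) and TPL at -0.96 (0.477). Over all probe sets 278 to 374 were called with an array left out and 154 without both wild type 3 and bdl 1, with 5 Aux/IAA genes and 1 PLT and HD-ZIP III gene. With an array left out there were 2 to 4 calls among PLT and HD-ZIP III genes and 6 to 8 among Aux/IAA genes. The call of IAA12 was lost without both arrays (adjusted p = 0.0599) and with the block (0.0689). Other recruiting factors had 2 calls with cyclic loess, where BZR1 was added, and 2 above the 50th percentile, where BES1 was added. The causes of these shifts were not tested beyond the smaller number of arrays or genes.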
